A study of Mus musculus with 8 samples.

Results

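The 42 genes described here encode proteins that repair DNA or signal its damage. They were taken by gene symbol from a fixed list, which was chosen with earlier results of these data known. Each gene matched 1 of the 45706 gene lines of the deposited table. They were sorted by repair route: 10 act in homologous recombination, 6 in end joining, 8 in break sensing and the checkpoint, 3 in mismatch repair, 7 in base excision and single-strand break repair, 3 in interstrand crosslink repair and 3 in nucleotide excision repair, and 2 are RecQ helicases. All 42 are protein coding in the GENCODE M21 annotation of mm10 (GRCm38).

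RNA-seq was done on muscle stem cells, from which adult muscle fibres regenerate, in 3 libraries of cells cultured for 48 h and 5 libraries of freshly isolated cells. All cells came from hindlimb muscle of wild-type (WT) C57BL/6 female mice aged 8 to 12 weeks. They were sorted as positive for α7-integrin and CD34 and negative for CD45, Sca1, CD31 and CD11b. The cultured cells were grown on a hydrogel of 12 kPa stiffness, in medium with 20% serum. The 3 cultured libraries were sequenced together with fresh replicates 4 and 5 (run 2), and fresh replicates 1 to 3 apart from them (run 1). The labels name no separate animals or cultures for the libraries, so the p-values take in the spread between libraries alone, and that spread may be technical.

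DNA is damaged all the time, and cells answer with several repair routes that differ in the lesion they take. Broken ends are either copied from the sister chromatid (homologous recombination, which needs a replicated chromosome) or rejoined directly (end joining, which works at any stage of the cell cycle). Damaged bases, mispaired bases, bulky adducts and crosslinks between the strands each have an excision route, and checkpoint kinases hold the cell cycle while repair goes on. Muscle stem cells rest outside the cell cycle in uninjured muscle and enter it after isolation, and resting cells rely mainly on end joining for breaks.

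The libraries held 13919440 to 20068154 counts. Genes with a count numbered 32710 to 34689 in the fresh libraries of run 1 and 20480 and 20898 in those of run 2. In the cultured libraries they numbered 15415 to 17852. Mitochondrial rRNA made up 5.25% to 10.5% of counts in fresh libraries of run 1 and 26.5% and 23.2% in those of run 2. In the cultured libraries it made up 11.1% to 18.4%. The part of these differences in the repair genes' values was not tested. Of 12 cell division genes, 11 were called higher in culture and Ccnb2 was not called, and their summed level was 2004 to 2180 CPM in cultured against 76.3 to 135 CPM in fresh libraries. Of 10 genes of the p53 response, 9 were called higher and Sesn1 lower, with sums of 2378 to 3852 CPM in cultured against 472 to 651 CPM in fresh libraries. Cdkn1a, a p53 target that blocks cell cycle kinases, averaged 495 ± 164 CPM in cultured and 140.4 ± 53.1 CPM in fresh libraries, and Trp53, the gene of p53 itself, averaged 396 ± 74.0 CPM in cultured and 136 ± 49.8 CPM in fresh libraries. Mki67, a marker of cycling cells, averaged 627 ± 228 CPM in cultured and 27.2 ± 18.0 CPM in fresh libraries (log2 fold change 4.02, no longer called with fresh replicate 4 or 5 left out), and Pax7, a transcription factor gene by which muscle stem cells are known, averaged 77.4 ± 22.2 CPM in cultured and 1159.9 ± 281 CPM in fresh libraries (-4.05). Of 10 muscle stem cell markers, 8 were called lower in culture and Itga7 and Cd34 were not called, with sums of 1058 to 1183 CPM in cultured against 4909 to 6139 CPM in fresh libraries.

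Markers of other cell types were present mainly in the fresh libraries. Pericyte and smooth muscle markers summed to 48.7 to 157 CPM in cultured and 835 to 3261 CPM in fresh libraries (7 of 9 called lower, with Abcc9 and Kcnj8 at 0 in culture). Fibro-adipogenic markers summed to 7.59 to 19.0 CPM in cultured and 877 to 1202 CPM in fresh libraries (4 of 7 lower, Ly6a at 0 in culture), and Schwann cell markers to 0.0527 to 3.47 CPM in cultured and 50.4 to 811 CPM in fresh libraries (5 of 5 lower, Sox10 and S100b at 0 in culture). Endothelial markers summed to 0.772 to 41.3 CPM in cultured and 93.8 to 138 CPM in fresh libraries (3 of 9 lower, with Kdr, Cldn5 and Egfl7 at 0 in culture). Among these Pecam1, the gene of the CD31 used in the sort, was not called and had the opposite sign, with 35.1, 0.103 and 38.1 CPM in cultured replicates 1, 2 and 3 and 0.195 to 4.50 CPM in fresh libraries (log2 fold change 5.48, adjusted p = 0.0677), and made up most of the endothelial sum of cultured replicates 1 and 3. Blood markers summed to 0.204 to 2.53 CPM in cultured and 19.2 to 65.8 CPM in fresh libraries (3 of 9 lower, with Csf1r, Lyz2, Adgre1, C1qa and Cd79a at 0 in culture). Myofibre markers summed to 11.3 to 77.6 CPM in cultured and 23.6 to 28.5 CPM in fresh libraries (1 of 6 lower). These lists, apart from the myofibre one, and the cell division list move with every difference between the groups given here, and their part in the repair genes' values was not tested. In such bulk samples fewer cells of a type and less RNA per cell cannot be told apart.

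The comparison of cultured with fresh cells asks how repair transcripts differ once the cells have left the muscle and spent 48 h in culture. Transcripts of 9 of the 42 genes rose in culture and 1 fell, and the other 32 were not called. Brca1 and Brca2 of homologous recombination rose, as did the checkpoint kinase genes Atm and Chek1, the exonuclease gene Exo1, Apex1, Parp1 and Lig3 of base excision and single-strand break repair, and the helicase gene Blm. Wrn, the gene of a second RecQ helicase, fell. No gene of end joining, crosslink repair or nucleotide excision repair was called. These routes held only 6, 3 and 3 of the 42 genes, and differences between routes were not tested.

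Levels are CPM (counts scaled to library size), as mean ± SD over n = 3 cultured and n = 5 fresh libraries. Fold changes are log2, cultured over fresh, ± SE, and a gene is called at an adjusted p under 0.05 (edgeR quasi-likelihood test, Benjamini-Hochberg over 19054 genes tested). All 42 genes passed the filter on low counts. With the sequencing run in the model, the fold change sets cultured libraries against fresh replicates 4 and 5 of the same run, and fresh replicates 1 to 3 inform the spread. Of all genes tested, 8.87% were called higher and 18.0% lower, against 21.4% (9) and 2.38% (1) of the 42. The list was not chosen blind to these data, so these shares are descriptive only. The median log2 fold change of the 42 genes was 0.77, against -0.21 over all genes tested, and 29 of the 42 were positive. Without scaling factors these medians were 1.19 and 0.03.

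Counting libraries in place of a test, 12 of the 42 genes (28.6%) had every cultured library above every fresh one, against 13.7% of all genes, and 7 (16.7%) had every cultured library below every fresh one, against 26.1% of all genes. In the other 23 the groups overlapped. Of the 12, the 9 called genes were joined by Palb2, Xrcc3 and Rad50, and of the 7, Wrn was joined by Rad51c, Nhej1, Trp53bp1, Fancd2, Xpc and Ddb2. Between the fresh libraries of run 2 and those of run 1, 0.0945% of all genes were called higher and 0.0945% lower. None of the 42 was called there by edgeR. An unadjusted p under 0.05 was found for 4 of them, against 15.5% of all genes (2959). DESeq2, which called 1934 genes between the runs, called 1 of the 42, Exo1, lower in run 2 (log2 fold change -2.59, adjusted p = 0.0191). With 1 library left out, 9 of the 32 genes not called changed sign, 19 moved by more than 1.5 times, and Xrcc3, Rad50, Trp53bp1 and Ddb2 did neither.

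**Figure D1:**
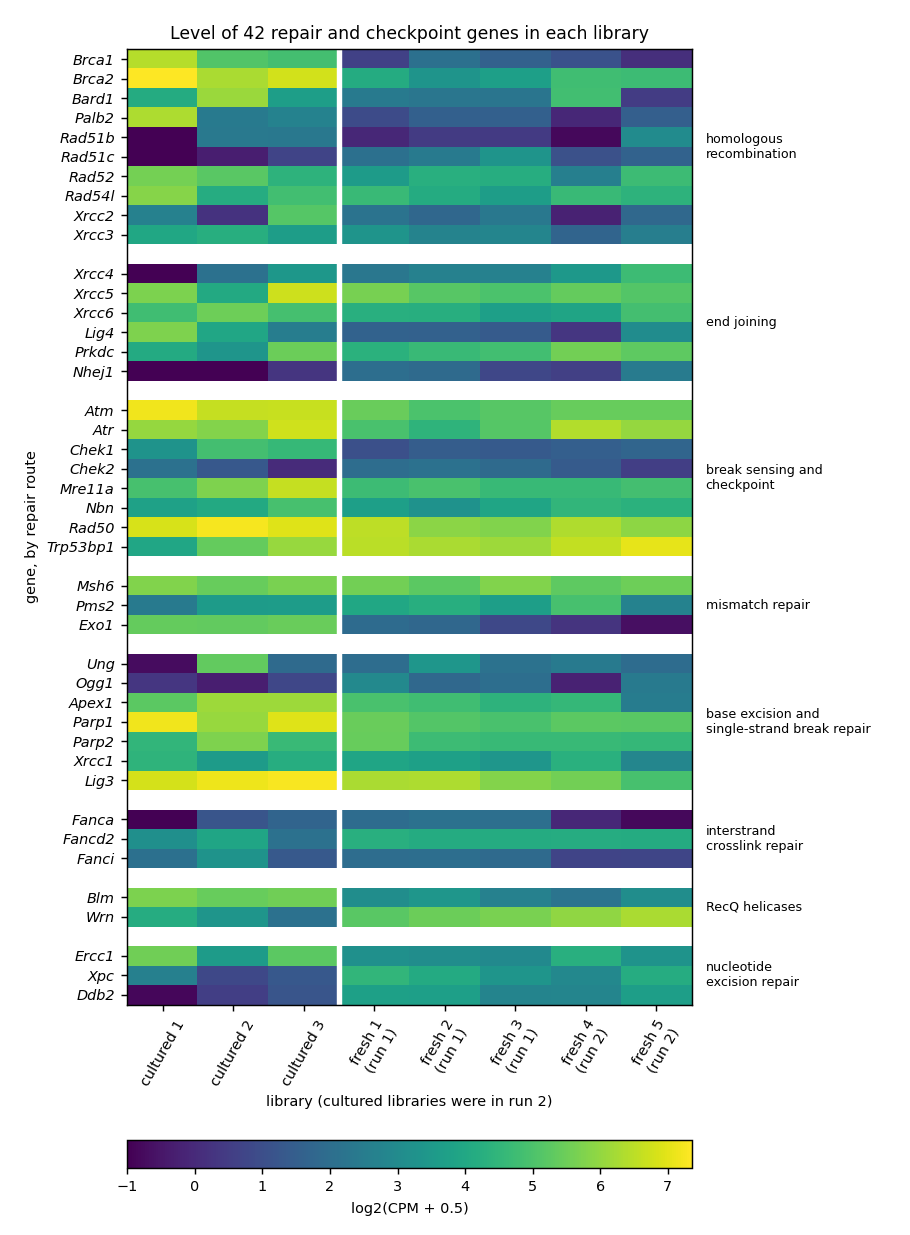
Level of each of the 42 genes, by repair route down the page, in each library across it, cultured libraries left and fresh ones right; colour is log2(CPM + 0.5), from dark (low) to yellow (high). The rows of Brca1, Exo1 and Blm are lighter in every cultured library than in any fresh one, and the row of Wrn is darker.

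**Figure D2:**
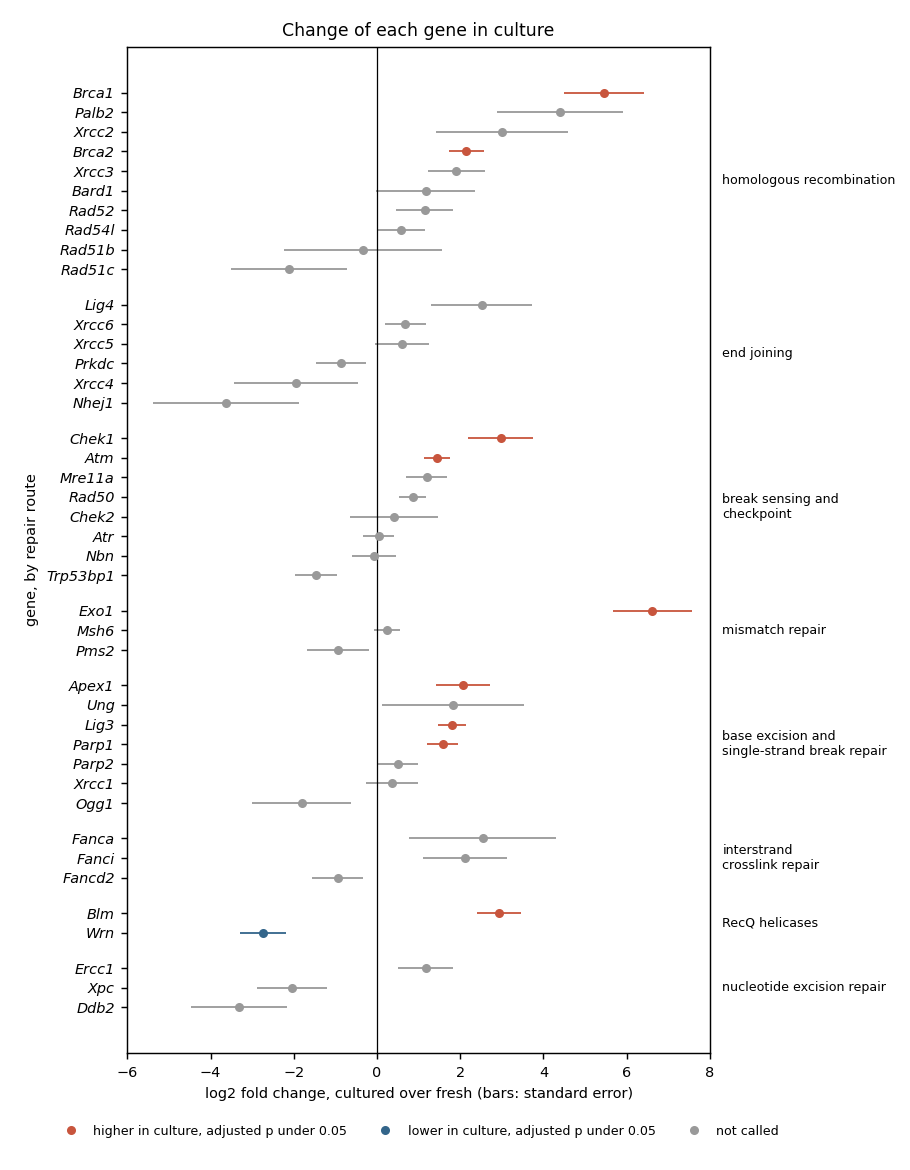
Log2 fold change of each gene, cultured over fresh, by repair route, with the standard error as a bar; red marks the 9 genes called higher, blue the 1 called lower and grey the 32 not called. Fold changes run from -3.64 for Nhej1, not called, to 6.62 for Exo1.

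In homologous recombination Brca1 and Brca2 rose in culture and none of the 10 genes fell. BRCA1 promotes the trimming of broken ends, and BRCA2 acts on the single strands that trimming leaves. PALB2 links them, and BARD1 is the partner that BRCA1 needs for its stability. Brca1 (ENSMUSG00000017146, chr11:101488764-101551955, minus strand) had 85.4, 33.5 and 28.5 CPM in cultured replicates 1 to 3, against 1.03, 3.74, 2.52, 1.64 and 0.586 CPM in fresh replicates 1 to 5. Every cultured library lay above every fresh one, and cultured replicate 1 stood well above the other cultured libraries. Brca1 thus averaged 49.1 ± 31.5 CPM in cultured and 1.90 ± 1.26 CPM in fresh libraries, a log2 fold change of 5.45 ± 0.97 (adjusted p = 0.00480). Leaving out fresh replicate 4 gave 6.40, leaving out cultured replicate 1 gave 4.85, and the fold change was 4.38 against the fresh libraries of run 1, and Brca1 stayed called in each.

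Brca2 (ENSMUSG00000041147, chr5:150522630-150570329, plus strand) had 163, 78.4 and 110.3 CPM in cultured replicates 1 to 3, against 17.1, 9.48, 12.8, 27.2 and 26.0 CPM in fresh replicates 1 to 5. The groups did not overlap, and fresh replicates 4 and 5 were above the other fresh libraries. It averaged 117 ± 42.7 CPM in cultured and 18.5 ± 7.86 CPM in fresh libraries, with a log2 fold change of 2.14 ± 0.42 (adjusted p = 0.00684). Against the fresh libraries of run 1 the log2 fold change was 3.21.

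Promoter sequences of the called pair are shown with those of Blm, a called helicase gene, and of Rad51c. Rad51c is of the same route as the pair and had every cultured library below every fresh one. Brca2 and Rad51c carry letters that E2F cell cycle factors are known to bind. Brca1 and Blm carry CCAAT and no E2F letters, and CCAAT stood in 41.1% of all genes. The sequences are RefSeq windows on GRCm38.p6, from 250 bases before to 50 after the annotated start, printed on the gene's own strand. Capitals mark CCAAT or its reverse complement in Brca1 and Blm, and the E2F letters in Brca2 and Rad51c (TTT, then C or G at each of the next 2 positions, then CGC, or the reverse complement of that run). Rad51c has a pair of annotated starts in the table, and the window of the one upstream is given.
Brca1, chr11:101551906-101552205, minus strand: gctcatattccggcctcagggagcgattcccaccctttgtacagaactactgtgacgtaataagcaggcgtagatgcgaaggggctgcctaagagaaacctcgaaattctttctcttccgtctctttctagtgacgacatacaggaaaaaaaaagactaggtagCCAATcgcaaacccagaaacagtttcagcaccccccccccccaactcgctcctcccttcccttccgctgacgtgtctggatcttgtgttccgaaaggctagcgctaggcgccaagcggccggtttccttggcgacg
Brca2, chr5:150522371-150522670, plus strand: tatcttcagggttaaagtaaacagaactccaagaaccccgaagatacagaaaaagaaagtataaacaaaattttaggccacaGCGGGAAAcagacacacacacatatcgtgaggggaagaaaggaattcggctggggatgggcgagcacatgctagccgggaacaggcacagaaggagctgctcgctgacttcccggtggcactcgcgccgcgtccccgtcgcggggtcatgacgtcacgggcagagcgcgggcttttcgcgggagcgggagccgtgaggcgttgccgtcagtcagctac
Blm, chr7:80534949-80535248, minus strand: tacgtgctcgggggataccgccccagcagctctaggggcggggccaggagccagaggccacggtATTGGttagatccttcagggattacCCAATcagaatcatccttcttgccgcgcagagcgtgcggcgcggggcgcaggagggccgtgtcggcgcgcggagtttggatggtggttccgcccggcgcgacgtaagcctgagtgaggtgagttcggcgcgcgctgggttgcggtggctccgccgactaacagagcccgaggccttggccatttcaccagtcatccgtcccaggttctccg
Rad51c, chr11:87404905-87405204, minus strand: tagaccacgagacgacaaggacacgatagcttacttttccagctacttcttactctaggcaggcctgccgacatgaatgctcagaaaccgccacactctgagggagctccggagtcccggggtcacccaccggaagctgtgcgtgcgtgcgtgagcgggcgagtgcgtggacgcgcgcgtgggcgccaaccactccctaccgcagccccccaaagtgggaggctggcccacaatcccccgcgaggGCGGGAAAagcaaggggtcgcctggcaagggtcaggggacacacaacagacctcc
The marked letters begin 86 bases before the start in Brca1, 168 before it in Brca2, 186 and 161 before it in Blm and 5 before it in Rad51c. Of the 42 genes, 33 were in the promoter table, and E2F letters stood in 6 of these (18.2%), against 2.61% of 27025 genes. The 6 were Brca2, which was called higher, and Bard1, Chek2, Rad51c, Xrcc6 and Msh6, which were not called, so the letters occurred in 1 of 8 genes called higher and in 5 of 25 not called. CCAAT stood in 17 of the 33 (51.5%) against 41.1% of genes, in 4 of the 8 called higher and 13 of the 25 not called. The cell cycle homology letters TTTGAA stood in 2 of the 33 (6.06%) against 20.2% of genes, and in none of the 8. All 3 were looked for on both strands, with overlaps allowed, and a match describes the letters only.

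The other 8 genes of homologous recombination were not called. Rad54l, a DNA translocase gene of this route that had the highest mean CPM of the 8, had 56.2, 17.5 and 27.6 CPM in cultured replicates 1 to 3, against 24.8, 17.0, 12.0, 24.7 and 20.7 CPM in fresh replicates 1 to 5. The groups overlapped, with cultured replicate 1 alone above all fresh libraries, and the log2 fold change was 0.57 ± 0.58 (adjusted p = 0.506). Without cultured replicate 1 it was 0.054. Palb2 had 80.0, 4.99 and 6.01 CPM in cultured replicates 1 to 3, against 1.37, 2.47, 2.46, 0.442 and 2.41 CPM in fresh replicates 1 to 5. All 3 cultured libraries were above the fresh ones, but cultured replicate 1 carried most of the mean, and the log2 fold change was 4.41 ± 1.51 (adjusted p = 0.0599). Palb2 passed the threshold without scaling factors (adjusted p = 0.0453) and without cultured replicate 2 (0.0293) or 3 (0.0330), and was 2.01 without cultured replicate 1 (0.175).

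Xrcc3, which acts in strand exchange, had 15.4, 18.3 and 12.1 CPM in cultured replicates 1 to 3, against 9.40, 6.21, 6.48, 2.72 and 5.41 CPM in fresh replicates 1 to 5. The groups did not overlap, and the log2 fold change was 1.91 ± 0.69 (adjusted p = 0.0706); DESeq2 gave an adjusted p of 0.00208. Rad51c, the gene of the partner of XRCC3, had 0, 0.309 and 1.12 CPM in cultured replicates 1 to 3, against 3.76, 4.94, 9.42, 1.58 and 2.61 CPM in fresh replicates 1 to 5. Its cultured libraries were all below the fresh ones, at levels of few reads, and the log2 fold change was -2.12 ± 1.39 (adjusted p = 0.298). The pair thus stood on opposite sides of 0, neither of them called.

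Of the remaining genes of this route, Bard1 averaged 32.3 ± 30.6 CPM in cultured and 8.45 ± 11.0 CPM in fresh libraries (1.17 ± 1.20, adjusted p = 0.513), and fresh replicate 4 alone held 27.9 CPM (5.20 without it, adjusted p = 0.0450). Rad52, which anneals single strands, averaged 35.0 ± 13.7 CPM in cultured and 16.0 ± 7.72 CPM in fresh libraries (1.14 ± 0.69, adjusted p = 0.260), and the fold change became 0.47 on leaving out fresh replicate 4 and 2.64 on leaving out fresh replicate 5. Xrcc2, also of the strand exchange step, spanned 0.669 to 34.7 CPM among the cultured and 0.379 to 4.56 CPM among the fresh libraries (3.00 ± 1.59, adjusted p = 0.197), and its fold change became 0.90 without cultured replicate 3 and 5.18 without fresh replicate 5. Rad51b, of the same step, had no count in cultured replicate 1 and 4.73 and 4.54 CPM in the other cultured libraries, against 0.0632 to 7.75 CPM in the fresh ones (-0.34 ± 1.91, adjusted p = 0.944).

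**Figure D3:**
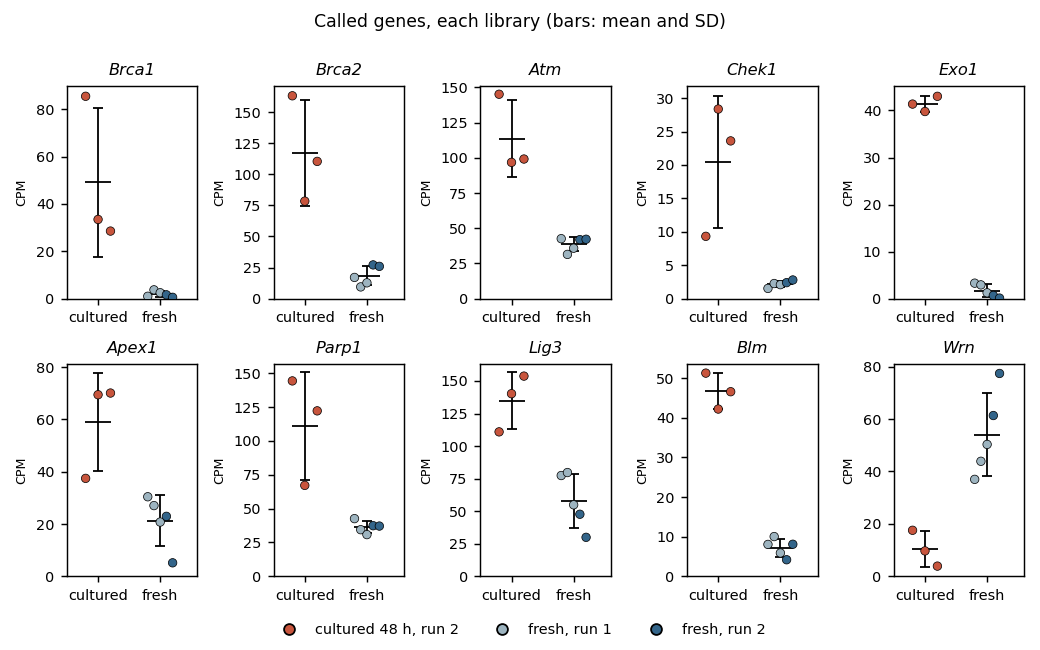
CPM of each of the 10 called genes in every library, cultured left (red) and fresh right (grey for run 1, blue for run 2), with mean and SD as bars. In 9 panels every cultured point lies above every fresh point, and in the panel of Wrn every cultured point lies below.

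Break sensing and the checkpoint contributed Atm and Chek1. ATM is the kinase that answers broken ends, ATR the one that answers single-stranded DNA at stalled replication forks, and CHK2 and CHK1 are the kinases they switch on. Atm (ENSMUSG00000034218, chr9:53439149-53536740, minus strand) had 145, 96.8 and 99.2 CPM in cultured replicates 1 to 3, against 42.6, 31.5, 35.9, 41.9 and 42.2 CPM in fresh replicates 1 to 5. The fresh libraries lay close together, and the lowest cultured library was above all of them. It averaged 114 ± 27.3 CPM in cultured and 38.8 ± 4.97 CPM in fresh libraries, a log2 fold change of 1.43 ± 0.31 (adjusted p = 0.00987). Without fresh replicate 5 the adjusted p was 0.0529.

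Chek1 (ENSMUSG00000032113, chr9:36708482-36727065, minus strand) had 9.33, 28.4 and 23.6 CPM in cultured replicates 1 to 3, against 1.54, 2.27, 2.10, 2.40 and 2.80 CPM in fresh replicates 1 to 5. The fresh values were all low and close together, while the cultured ones were spread more widely and stood apart from them. Its mean was 20.4 ± 9.90 CPM in cultured and 2.22 ± 0.462 CPM in fresh libraries, with a log2 fold change of 2.97 ± 0.79 (adjusted p = 0.0235). With fresh replicate 4 left out the adjusted p was 0.122, with fresh replicate 5 left out 0.109, and in run 2 alone 0.0800.

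Their partners Atr and Chek2 were not called. Atr had 64.6, 55.1 and 108 CPM in cultured replicates 1 to 3, against 30.7, 21.0, 35.3, 82.9 and 64.6 CPM in fresh replicates 1 to 5. The fresh libraries split by run, with replicates 4 and 5 among the cultured values and replicates 1 to 3 below all of them. The log2 fold change within run 2 was 0.04 ± 0.38 (adjusted p = 0.985), and against the fresh libraries of run 1 it was 1.45 (adjusted p = 0.0185). Between the runs, fresh libraries differed by 1.35 ± 0.38 on the log2 scale (adjusted p = 0.0911). Chek2 was low in both groups, at 2.09 ± 1.65 CPM in cultured and 2.71 ± 1.14 CPM in fresh libraries (0.41 ± 1.05, adjusted p = 0.823).

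MRE11, RAD50 and NBN form the complex that binds a broken end and recruits ATM. Rad50, with the highest mean CPM of the 6 genes of this route that were not called, had 114, 151 and 123 CPM in cultured replicates 1 to 3, against 91.2, 59.8, 53.9, 81.8 and 60.8 CPM in fresh replicates 1 to 5. The groups did not overlap, and the log2 fold change was 0.86 ± 0.32 (adjusted p = 0.0769); it passed the threshold without scaling factors (1.29, adjusted p = 0.0250). Mre11a averaged 60.5 ± 35.1 CPM in cultured and 26.8 ± 2.89 CPM in fresh libraries (1.19 ± 0.50, adjusted p = 0.111), and without cultured replicate 1 it was 1.58 (adjusted p = 0.0133). Nbn averaged 20.0 ± 8.94 CPM in cultured and 15.6 ± 5.33 CPM in fresh libraries (-0.07 ± 0.53, adjusted p = 0.971). The 3 subunits were thus not called, and only Rad50 had groups apart.

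Trp53bp1 encodes 53BP1, which shields broken ends from trimming and so favours end joining over recombination. It had 14.8, 41.2 and 65.7 CPM in cultured replicates 1 to 3, against 89.3, 77.7, 70.0, 94.6 and 130.3 CPM in fresh replicates 1 to 5. Every cultured library was below every fresh one, the highest cultured value coming close to the lowest fresh one. The log2 fold change was -1.47 ± 0.51 (adjusted p = 0.0632), and the threshold was passed without cultured replicate 1 (-1.01, adjusted p = 0.0440) and without cultured replicate 3 (-1.97, adjusted p = 0.0240). Trp53bp1 was called in these 2 of 18 alternative settings alone. Of its exon bases, 15.0% are shared with Tubgcp4, which was itself higher in culture (2.39, adjusted p = 0.00576), and it is not stated whether counting used strand.

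No end joining gene was called. The KU70 and KU80 proteins (Xrcc6 and Xrcc5) ring a broken end, DNA-PKcs (Prkdc) is the kinase they recruit, and ligase IV (Lig4) with XRCC4 and XLF (Nhej1) seals it. Xrcc5, the highest of the 6 by mean CPM, had 52.0, 16.4 and 104 CPM in cultured replicates 1 to 3, against 49.1, 36.1, 31.4, 41.4 and 34.3 CPM in fresh replicates 1 to 5. Cultured values lay both below and above all fresh ones, and the log2 fold change was 0.60 ± 0.64 (adjusted p = 0.532). Xrcc6 averaged 34.1 ± 9.89 CPM in cultured and 18.4 ± 6.15 CPM in fresh libraries (0.68 ± 0.49, adjusted p = 0.342), and Prkdc averaged 23.6 ± 18.3 CPM in cultured and 31.7 ± 11.3 CPM in fresh libraries (-0.87 ± 0.60, adjusted p = 0.320). Without cultured replicate 3, the highest of its cultured libraries, Prkdc was -1.71 (adjusted p = 0.0277).

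The ligation genes differed widely among the cultured libraries. Lig4 had 53.2, 15.0 and 5.30 CPM in cultured replicates 1 to 3, against 2.62, 2.54, 2.16, 0.758 and 7.82 CPM in fresh replicates 1 to 5. Cultured replicate 1 was far above cultured replicate 3, which in turn lay below fresh replicate 5, and the log2 fold change was 2.51 ± 1.22 (adjusted p = 0.161). Against the fresh libraries of run 1 it was 3.35 (adjusted p = 0.0212), without cultured replicate 1 it was 1.31 (0.392), and without fresh replicate 4 or 5 it was 1.67 (0.448) or 4.99 (0.0824). Nhej1 had 0, 0 and 0.713 CPM in cultured replicates 1 to 3, against 3.59, 3.21, 1.20, 1.01 and 5.08 CPM in fresh replicates 1 to 5. Its cultured libraries were all below the fresh ones, with counts in cultured replicate 3 alone (14 counts), and the log2 fold change was -3.64 ± 1.75 (adjusted p = 0.159). Without that library, which leaves no count in culture, the adjusted p was 0.0160. Xrcc4 averaged 4.67 ± 5.15 CPM in cultured and 10.5 ± 8.82 CPM in fresh libraries (-1.95 ± 1.49, adjusted p = 0.371), with no count in cultured replicate 1.

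In mismatch repair the 1 called gene was Exo1, the exonuclease that removes the mispaired strand and also trims broken ends for recombination. Exo1 (ENSMUSG00000039748, chr1:175880581-175913489, plus strand) had 41.4, 39.8 and 43.0 CPM in cultured replicates 1 to 3, against 3.30, 2.94, 1.26, 0.695 and 0.130 CPM in fresh replicates 1 to 5. The cultured libraries differed little among themselves and were far above each fresh one. It averaged 41.4 ± 1.61 CPM in cultured and 1.67 ± 1.39 CPM in fresh libraries, a log2 fold change of 6.62 ± 0.94 (adjusted p = 0.00188), the highest of the 42. Fresh replicates 4 and 5, against which the fold change is set, held only 11 and 2 counts of Exo1, so its size is uncertain. Leaving out fresh replicate 4 gave a fold change of 8.28, leaving out fresh replicate 5 gave 5.89, and it was 4.11 against the fresh libraries of run 1.

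Msh6, a subunit of the MutSα sensor of mispaired bases, had 53.9, 41.99 and 50.3 CPM in cultured replicates 1 to 3, against 47.4, 37.8, 54.5, 38.2 and 45.0 CPM in fresh replicates 1 to 5. The 2 groups overlapped closely, and the log2 fold change was 0.23 ± 0.31 (adjusted p = 0.637). Pms2, the nuclease subunit of MutLα, averaged 9.37 ± 3.96 CPM in cultured and 16.4 ± 8.79 CPM in fresh libraries (-0.93 ± 0.75, adjusted p = 0.395). Exo1 was thus the one of the 3 genes with groups apart.

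Base excision and single-strand break repair held 3 called genes. A glycosylase (UNG for uracil, OGG1 for oxidised guanine) removes the base, APE1 (Apex1) cuts the strand, PARP1 and PARP2 flag the nick, and XRCC1 with ligase III (Lig3) closes it. Lig3 (ENSMUSG00000020697, chr11:82781108-82804274, plus strand) had 111, 140.2 and 154 CPM in cultured replicates 1 to 3, against 77.4, 79.7, 54.9, 47.6 and 29.9 CPM in fresh replicates 1 to 5. The groups did not overlap, and fresh replicate 5 was the lowest. Its mean was 135 ± 21.9 CPM in cultured and 57.9 ± 20.9 CPM in fresh libraries, with a log2 fold change of 1.80 ± 0.33 (adjusted p = 0.00549). Against the fresh libraries of run 1 the fold change was 1.00, and 25.1% of its exon bases are shared with Rffl, which was not called (-1.23, adjusted p = 0.105).

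Parp1 (ENSMUSG00000026496, chr1:180568924-180601254, plus strand) had 144, 67.1 and 122 CPM in cultured replicates 1 to 3, against 42.6, 34.4, 30.8, 37.3 and 37.1 CPM in fresh replicates 1 to 5. The fresh libraries were close together and all below the lowest cultured one. It averaged 111 ± 39.7 CPM in cultured and 36.4 ± 4.33 CPM in fresh libraries, a log2 fold change of 1.58 ± 0.38 (adjusted p = 0.0151). Leaving out fresh replicate 4 gave an adjusted p of 0.0755, leaving out fresh replicate 5 gave 0.0823, and run 2 alone gave 0.0516.

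Apex1 (ENSMUSG00000035960, chr14:50924968-50927139, plus strand) had 37.5, 69.5 and 70.1 CPM in cultured replicates 1 to 3, against 30.4, 27.0, 20.8, 22.9 and 5.15 CPM in fresh replicates 1 to 5. Cultured libraries were above all fresh ones, and fresh replicate 5 was far below the other fresh libraries. Its mean was 59.0 ± 18.7 CPM in cultured and 21.3 ± 9.75 CPM in fresh libraries, with a log2 fold change of 2.07 ± 0.65 (adjusted p = 0.0433). The call was lost without fresh replicate 1, 2, 3 or 5 (adjusted p = 0.0714, 0.0719, 0.0667 and 0.161), without cultured replicate 2 or 3 (0.0778 and 0.0787) and in run 2 alone (0.126). Leaving out fresh replicate 5 gave a fold change of 1.39, leaving out fresh replicate 4 gave 3.57, and it was 1.25 against the fresh libraries of run 1. Of its exon bases, 61.7% are shared with Pip4p1 (Tmem55b in the deposited table), which was not called (0.32, adjusted p = 0.759).

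Parp2, which shares the nick-sensing role of Parp1, had 22.2, 52.6 and 25.1 CPM in cultured replicates 1 to 3, against 42.5, 25.9, 24.2, 24.1 and 23.1 CPM in fresh replicates 1 to 5. The groups overlapped, and the log2 fold change was 0.50 ± 0.50 (adjusted p = 0.504). Xrcc1, the scaffold that holds ligase III, averaged 16.7 ± 4.80 CPM in cultured and 12.6 ± 4.76 CPM in fresh libraries (0.36 ± 0.63, adjusted p = 0.721). Lig3 was called and its scaffold partner was not, and the difference between them was not tested. Of the glycosylases, Ung spanned 0.105 to 40.3 CPM in the cultured libraries, against 3.39 to 9.88 CPM in the fresh ones (1.83 ± 1.71, adjusted p = 0.471). Ogg1 averaged 0.757 ± 0.457 CPM in cultured and 3.80 ± 2.49 CPM in fresh libraries (-1.81 ± 1.19, adjusted p = 0.299), with fresh replicate 4 at 0.379 CPM inside the cultured range.

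The 2 RecQ helicase genes among the 42 moved in opposite directions. The other RecQ helicase genes, from the longer list described below, were not called and had overlapping groups. They were Recql (0.53, adjusted p = 0.523), Recql4 (1.54, adjusted p = 0.576) and Recql5 (0.36, adjusted p = 0.833). BLM and WRN both unwind recombination intermediates and stalled forks, and human patients who lack them have Bloom and Werner syndromes. Blm (ENSMUSG00000030528, chr7:80454733-80535119, minus strand) had 51.3, 42.2 and 46.6 CPM in cultured replicates 1 to 3, against 8.03, 10.02, 5.88, 4.17 and 8.08 CPM in fresh replicates 1 to 5. Cultured libraries differed little among themselves and were all well above each fresh one. It averaged 46.7 ± 4.54 CPM in cultured and 7.24 ± 2.25 CPM in fresh libraries, a log2 fold change of 2.93 ± 0.53 (adjusted p = 0.00526). Wrn (ENSMUSG00000031583, chr8:33234384-33385527, minus strand) had 17.5, 9.68 and 3.87 CPM in cultured replicates 1 to 3, against 37.0, 43.9, 50.3, 61.3 and 77.4 CPM in fresh replicates 1 to 5. All cultured libraries were below all fresh ones, and fresh replicates 4 and 5 were the highest. It averaged 10.4 ± 6.86 CPM in cultured and 54.0 ± 15.9 CPM in fresh libraries, a log2 fold change of -2.74 ± 0.56 (adjusted p = 0.00776), and was -2.04 against the fresh libraries of run 1.

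In interstrand crosslink repair, the Fanconi anemia core complex (with FANCA) attaches ubiquitin to FANCD2 and FANCI, which then direct the cutting of the crosslink. None of the 3 genes was called. Fancd2 had 8.43, 14.6 and 3.87 CPM in cultured replicates 1 to 3, against 18.7, 17.2, 17.3, 17.4 and 17.2 CPM in fresh replicates 1 to 5. The fresh libraries lay within 17.2 to 18.7 CPM, and every cultured library was below them. The log2 fold change was -0.95 ± 0.62 (adjusted p = 0.291). Fanci, which pairs with FANCD2, averaged 5.01 ± 3.78 CPM in cultured and 2.49 ± 1.23 CPM in fresh libraries (2.11 ± 1.01, adjusted p = 0.156), and DESeq2 called it (adjusted p = 0.0272). The fold change of Fanci was 1.31 without cultured replicate 2 (adjusted p = 0.326), 1.01 without the run term (adjusted p = 0.342) and 0.64 against the fresh libraries of run 1 (adjusted p = 0.603). Fanca averaged 1.52 ± 1.40 CPM in cultured and 2.25 ± 1.84 CPM in fresh libraries (2.54 ± 1.76, adjusted p = 0.323), with 3.36 to 3.81 CPM in the fresh libraries of run 1 against 0.442 and 0.0651 CPM in those of run 2. It had no count in cultured replicate 1.

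In nucleotide excision repair, XPC and DDB2 find the bulky lesion and ERCC1 with XPF cuts the strand on its 5′ side. Ddb2 had 0.0527, 0.978 and 1.78 CPM in cultured replicates 1 to 3, against 13.0, 12.5, 6.36, 6.44 and 12.4 CPM in fresh replicates 1 to 5. Cultured libraries were all below the fresh ones, with cultured replicate 1 near 0. The log2 fold change was -3.32 ± 1.15 (adjusted p = 0.0614), and DESeq2 gave -3.40 (adjusted p = 0.00578). It passed the threshold without cultured replicate 1 (-2.70, adjusted p = 0.0263) and without cultured replicate 3 (-4.12, adjusted p = 0.0430). In all it was called in 4 of 18 alternative settings. Ddb2 shares 23.8% of its exon bases with Acp2, which was not called (-0.46, adjusted p = 0.717).

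Xpc had 5.80, 1.24 and 1.94 CPM in cultured replicates 1 to 3, against 22.3, 16.6, 9.66, 6.89 and 17.7 CPM in fresh replicates 1 to 5. The groups did not overlap, with cultured replicate 1 just below fresh replicate 4. Its log2 fold change was -2.04 ± 0.84 (adjusted p = 0.105), and DESeq2 gave -2.09 (adjusted p = 0.0460). Without cultured replicate 1 it was -2.89 (adjusted p = 0.0171). Ercc1, the highest of the 3 by mean CPM, had 45.6, 11.4 and 37.3 CPM in cultured replicates 1 to 3, against 8.72, 8.08, 7.32, 18.8 and 9.19 CPM in fresh replicates 1 to 5. Cultured replicate 2 lay inside the fresh range and the other cultured libraries above it, and the log2 fold change was 1.17 ± 0.67 (adjusted p = 0.231). Against the fresh libraries of run 1 it was 2.01 (adjusted p = 0.0295). The genes of the lesion finders were thus lower and that of the nuclease subunit higher by mean, none of them called.

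**Figure D4:**
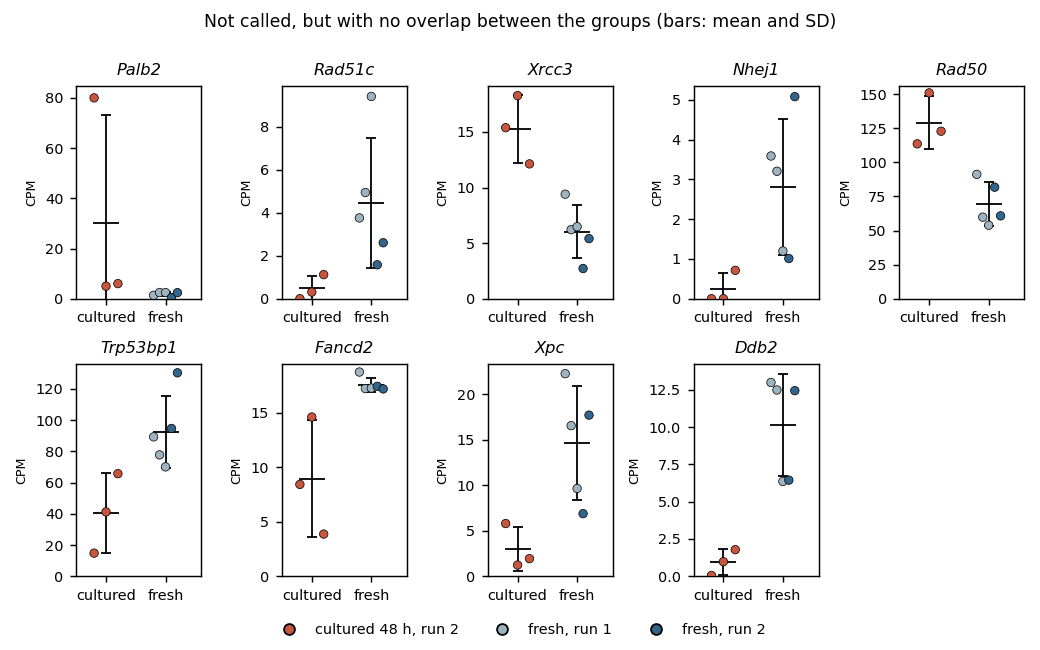
CPM in every library of the 9 genes with no overlap between the groups that were not called, cultured left (red) and fresh right (grey for run 1, blue for run 2), with mean and SD as bars, cut at 0 where the SD exceeds the mean. Cultured points lie above the fresh ones for Palb2, Xrcc3 and Rad50 and below them for the other 6 genes.

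Levels set per kilobase of exon give a rough comparison between the genes. In the cultured libraries Apex1 (41.5 CPM per kb), Rad50 (24.0), Xrcc5 (22.5) and Parp1 (21.0) were the highest of the 42. In the fresh libraries Xrcc5 (15.1 CPM per kb), Apex1 (15.0) and Rad50 (12.9) led. Brca1 stood at 5.76 CPM per kb in cultured and 0.223 CPM per kb in fresh libraries. Exon lengths are merged over the annotated transcripts, so they can exceed the length of the transcript expressed, and the amplification used can favour part of a transcript. Apex1 shares 61.7% of its exon bases with Pip4p1 (mean 25.2 CPM). Whether counting used strand is not stated, so the rank of Apex1 is uncertain.

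The cultured replicates differed widely for several genes. The SD as a share of the mean had a median over the 42 genes of 0.598 in cultured and 0.424 in fresh libraries, against 0.699 and 0.433 over the genes tested that had counts in the group. It was larger in the cultured libraries for 25 of the 42 (59.5%), against 74.3% of the 16672 genes with counts in both groups. Highest and lowest library differed more than 5-fold for 13 genes among the cultured and for 13 among the fresh libraries. The fresh group held more libraries, sequenced in separate runs, and a range tends to widen with the number of libraries. These counts therefore cannot show whether the groups were equally spread, and the share among all genes was not counted.

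Other repair genes, from a longer list of 130 symbols of which 123 matched the table and 122 were tested, were set beside the 42. This list too was chosen with earlier results of these data known. In culture 22 were called higher (18.0%) and 4 lower (3.28%), with 96 not called and a median log2 fold change of 0.56. Every cultured library was above every fresh one in 32 (26.2%) and below in 10 (8.20%). Over all genes tested the same shares were 8.87% called higher, 18.0% called lower, 13.7% above and 26.1% below.

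Among the higher ones with the largest fold changes and at least 2 CPM were Rmi2, Neil3 and Brip1. Rmi2, a subunit of the complex in which BLM works, averaged 13.5 ± 12.4 CPM in cultured and 1.43 ± 1.15 CPM in fresh libraries, with a log2 fold change of 5.67 ± 1.42 (adjusted p = 0.0180). Neil3, a glycosylase, averaged 6.42 ± 7.72 CPM in cultured and 0.729 ± 0.479 CPM in fresh libraries (4.79 ± 1.46, adjusted p = 0.0405). Brip1, the helicase that binds BRCA1, averaged 42.03 ± 18.3 CPM in cultured and 2.47 ± 1.21 CPM in fresh libraries (4.45 ± 0.92, adjusted p = 0.00833). Brip1 was called in all 18 alternative settings (6.36 without fresh replicate 5 and 3.69 without fresh replicate 4). Leaving out fresh replicate 4 ended the call of Rmi2 (4.89, adjusted p = 0.0980), and leaving out fresh replicate 5 gave 7.58. Rmi2 was 4.70 without cultured replicate 1, and against the fresh libraries of run 1 it was 2.64 (adjusted p = 0.0558). Neil3 lost its call with any fresh library left out (adjusted p 0.0652 to 0.190), without cultured replicate 3 (3.09, adjusted p = 0.0670) and against the fresh libraries of run 1 (2.66, adjusted p = 0.111).

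Of the 4 called lower, Fancc, of the Fanconi core complex, averaged 9.60 ± 7.10 CPM in cultured and 43.1 ± 12.8 CPM in fresh libraries, with a log2 fold change of -2.57 ± 0.64 (adjusted p = 0.0178). It lost its call without fresh replicate 4 (adjusted p = 0.0861) or 5 (0.0736) and against the fresh libraries of run 1 (-1.73, adjusted p = 0.0851), and was -3.21 without cultured replicate 2. Rev3l, the catalytic subunit of the translesion polymerase zeta, averaged 72.1 ± 11.6 CPM in cultured and 258 ± 114 CPM in fresh libraries (-2.39 ± 0.26, adjusted p = 0.000548), and was -1.24 against the fresh libraries of run 1. Setmar and Neil2, named after their values were seen, had no count in any cultured library. Against 3 counts over the cultured libraries, a floor of 0.0517 CPM, they were at least 48.8-fold and 62.4-fold lower than their means of 2.52 and 3.23 CPM in the fresh libraries of run 2 (adjusted p = 0.00673 and 0.00506). With fresh replicate 4 or 5 left out of that mean, the bound for Setmar was 74.4-fold or 23.2-fold, and that for Neil2 46.6-fold or 78.2-fold.

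In the routes with no called gene among the 42, the longer list held a few. Of 8 other end joining genes none was called higher and Setmar was called lower. Of 14 other crosslink repair genes, Usp1, which removes ubiquitin from FANCD2, was called higher (115 ± 43.2 CPM in cultured and 18.4 ± 4.22 CPM in fresh libraries, log2 fold change 2.44 ± 0.42, adjusted p = 0.00456) and Fancc lower. Of 18 other nucleotide excision repair genes, 6 were called higher and none lower. Among the 6, named after their values were seen, was Ddb1, the partner of DDB2, at 323 ± 33.6 CPM in cultured and 162 ± 39.3 CPM in fresh libraries (1.35 ± 0.25, adjusted p = 0.00549). Rad23b, the partner of XPC, averaged 292 ± 71.7 CPM in cultured and 86.0 ± 15.1 CPM in fresh libraries (1.64 ± 0.31, adjusted p = 0.00563). The remaining 4 were Ercc3, Ercc8, Gtf2h1 and Gtf2h2, with log2 fold changes of 1.55, 2.84, 1.85 and 1.35. Of the 6, Rad23b and Gtf2h1 kept their call in all 18 alternative settings, and Ddb1 in 17 (0.86 against the fresh libraries of run 1). Ercc3 lost its call in 11 settings, with any fresh library or cultured replicate 3 left out (adjusted p 0.0657 to 0.214) and against the fresh libraries of run 1 (1.06, adjusted p = 0.0754) among them. Gtf2h2 lost its call in 8, with any fresh library or cultured replicate 2 left out (adjusted p 0.0521 to 0.162) among them, and was 2.20 against the fresh libraries of run 1. Ercc8 lost its call in 6, without fresh replicate 4 (adjusted p = 0.0754) or 5 (0.0616), without the run term (1.59, adjusted p = 0.0553) and against the fresh libraries of run 1 (1.17, adjusted p = 0.111) among them. Ddb1 and Rad23b were thus called higher, while the genes of their partners Ddb2 and Xpc had every cultured library below every fresh one and were not called.

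In the remaining routes, 3 of 20 other genes of homologous recombination and 6 of 22 of the checkpoint were called higher. So were 2 of 17 of base excision and 1 of 6 listed with the RecQ helicases. These 6 include the helicase genes Recql, Recql4 and Recql5, which were not called. Of these routes only base excision held one called lower, Neil2. None of 5 other mismatch repair genes was called. Of 12 genes of translesion synthesis and direct reversal, 3 were called higher and Rev3l lower. Over all genes tested, 8.87% were called higher and 18.0% lower. Each route, here and above, held few genes, and differences between routes were not tested.

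**Figure D5:**
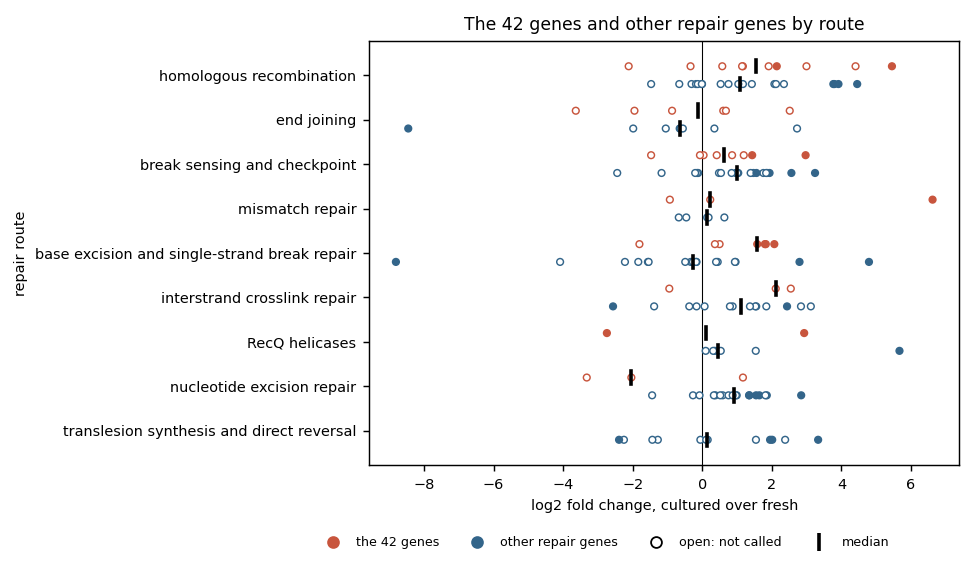
Log2 fold change, cultured over fresh, of the 42 genes (red) and of the other repair genes (blue) in each route, filled where called and open where not, with a black bar at each median. The 42 genes have their highest route median in crosslink repair (2.11, none of 3 called) and their lowest in nucleotide excision repair (-2.04, none of 3 called). With 3 genes a median is the value of 1 gene, here Fanci and Xpc. The 14 other crosslink repair genes have a median of 1.12 (1 called higher, 1 lower). The 18 other nucleotide excision repair genes have a median of 0.92 (6 called higher, none lower).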

How the data were processed

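The values deposited for the 8 RNA-seq libraries are expected counts, 1 line a gene; STAR, RSEM and mm10 are named in the submitters' processing notes, with no version, annotation or strand setting stated. Per the labels, cDNA was amplified with NuGEN Ovation v2. Of values above 0, 50.1% were not whole, and all were rounded. The 92 spike-in lines were left out, and the 2423 lines without an identifier stayed in. Libraries held 13919440 to 20068154 counts.

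Genes were kept by filterByExpr of edgeR 4.0.16 (R 4.3.3), scaled by TMM factors (0.790 to 1.18) and tested with the quasi-likelihood test with run and culture as terms (5 residual degrees of freedom). Standard errors are approximate, from fold change and test statistic. The method was also run on simulated counts, in which only genes above a set level were changed and no difference between runs was put in. That run cannot show how the fit performs for genes of few reads or with run differences. No replicate pair agreed within sampling noise. DESeq2 1.42.0, other scalings, filters and library sets were alternatives.

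The 42 genes and all lists were chosen with earlier results of these data known. Every called gene was described (up to 4 a route with a mean of at least 1 CPM), then the gene with the highest mean not called; of other repair genes, up to 4 called per direction by fold change with at least 2 CPM. A gene that this rule takes is not reported here. Genes with groups apart were added after their values were seen. Coordinates are from GENCODE M21, matched by identifier.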

Additional observations from a re-analysis of the deposited data

Results flagged for a closer look

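In 8 of the 42 genes, 1 of the 5 fresh libraries stood apart from the other 4 by Dixon's test at the 95% level. The test sets the gap to the nearest library against the whole range. About 1 in 20 groups is flagged where all 5 values are normal draws from 1 population. These values were untransformed CPM from 2 runs. The share flagged among all genes was not counted, so 8 of 42 is not shown to be an excess. Bard1 stood at 27.9 CPM in fresh replicate 4, and at 0.912 to 4.96 CPM in the others. Ercc1 stood at 18.8 CPM in the same library, and at 7.32 to 9.19 CPM in the others. Fresh replicate 5 was the high one for Rad51b (7.75 CPM, the others 0.0632 to 0.868), Xrcc4 (25.7 CPM, the others 4.50 to 10.4) and Lig4 (7.82 CPM, the others 0.758 to 2.62). Fresh replicate 1 was the high one for Parp2 (42.5 CPM, the others 23.1 to 25.9) and Fancd2 (18.7 CPM, the others 17.2 to 17.4). Ung stood at 9.88 CPM in fresh replicate 2, and at 3.39 to 4.80 CPM in the others. None of the 8 genes was called between cultured and fresh cells, and without fresh replicate 4 Bard1 had a log2 fold change of 5.20 (adjusted p = 0.0450).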

How the results depend on the processing

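Brca1, Brca2, Exo1 and Blm were called in all 18 alternatives. The 10 called genes kept their direction in all 180 values and their call in 162. The 32 others passed the threshold in 33 of 576 values and changed sign in 32. None of the 32 passed it in more than 6 of the 18 alternatives, the number for Palb2. The number called, 10, was 17 without the run term, 16 against the fresh libraries of run 1 and 6 to 14 with 1 library left out, lowest without fresh replicate 5. Of the 26 other repair genes called, 8 were called in all 18 alternatives and none changed sign; their number was 41 without the run term, 13 in run 2 alone and 15 to 38 with 1 library left out. Of all genes 5122 were called, 2780 in run 2 alone, 7089 against run 1 and 3337 to 6163 with 1 library left out; without scaling factors 2452 were higher and 2857 lower, against 1691 and 3431. Between the runs 36 genes were called, 1934 by DESeq2, 81 without a filter and 1 to 117 with 1 library left out; of the 42, none was called, and 1 by DESeq2. The cause of these shifts was not tested.

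With a replicate block, which sets cultured against run-1 fresh libraries of the same number, 7 of the 42 were called (6 shared; Chek1, Apex1, Lig3 and Wrn lost, Atr gained), 13 of the other repair genes and 2482 of all genes. The labels do not say whether the numbers pair the samples. Deviations of same-numbered libraries correlated at 0.0296, 0.0103 and 0.0108, and each correlated best with its own number. Correlations this weak, from 3 libraries a group, cannot decide whether the samples are paired.

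Genes not called that changed sign had these log2 fold changes. Atr had -0.025 with DESeq2's size factors and -0.027 with DESeq2. Rad51b had 0.12 and Nbn 0.39 without scaling factors. Without the run term Rad51b had 0.63, Nbn 0.36, Chek2 -0.37 and Fanca -0.57. Against run 1 the values were 2.19, 0.80, -0.70 and -1.14 in that order, and 0.045 for Prkdc. With the replicate block they were 1.00, 0.67, -1.12 and -2.14, and -0.66 for Ung. With 1 library left out, ranges were -0.47 to 0.22 for Nbn, -1.64 to 0.70 for Pms2, -1.25 to 5.50 for Rad51b, -0.30 to 0.28 for Atr, -0.28 to 1.12 for Chek2, -2.65 to 1.00 for Ogg1, -0.20 to 1.37 for Xrcc1, -1.27 to 2.47 for Ung and -0.17 to 1.07 for Xrcc5. Depth limits genes of few reads: 3 counts in a library are 0.153 to 0.200 CPM. In cultured replicate 1, Rad51b, Rad51c, Xrcc4, Nhej1, Ung, Fanca and Ddb2 lay below this, and in cultured replicate 2 Nhej1 did. In the fresh libraries of run 2, Rad51b lay below it in replicate 4, and Exo1 and Fanca in replicate 5.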

Other observations

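Among the 22 other repair genes called higher in culture were 6 of the checkpoint, named after their values were seen. Topbp1, the activator of ATR, averaged 174 ± 28.4 CPM in cultured and 40.7 ± 9.15 CPM in fresh libraries (log2 fold change 1.86 ± 0.31, adjusted p = 0.00361, edgeR quasi-likelihood test). Cdc25a, the phosphatase that CHK1 restrains, averaged 41.2 ± 11.4 CPM in cultured and 7.36 ± 3.30 CPM in fresh libraries (3.24 ± 0.57, adjusted p = 0.00464). Hus1, of the clamp that marks damaged DNA, averaged 62.7 ± 40.4 CPM in cultured and 13.5 ± 2.97 CPM in fresh libraries (2.56 ± 0.68, adjusted p = 0.0232). Mdc1, the scaffold at broken ends, averaged 137 ± 18.4 CPM in cultured and 75.5 ± 7.91 CPM in fresh libraries (0.98 ± 0.25, adjusted p = 0.0184), and Rnf168, the ubiquitin ligase upstream of 53BP1, averaged 79.7 ± 15.8 CPM in cultured and 23.4 ± 7.43 CPM in fresh libraries (1.56 ± 0.40, adjusted p = 0.0213). Tipin, of the fork protection complex, averaged 47.6 ± 26.7 CPM in cultured and 8.42 ± 3.74 CPM in fresh libraries (1.93 ± 0.56, adjusted p = 0.0339). In all 6 every cultured library was above every fresh one. Topbp1 kept its call in all 18 alternative settings. Without fresh replicate 4, Hus1 (adjusted p = 0.118), Tipin (0.156) and Mdc1 (0.0861) lost theirs, and without fresh replicate 5, Hus1 (0.137), Tipin (0.141), Mdc1 (0.0996) and Rnf168 (1.17, 0.136) did. Tipin also lost its call with any other fresh library or cultured replicate 3 left out (0.0563 to 0.0873), and Hus1 without cultured replicate 2 (0.0525). Rnf168 was 2.17 without fresh replicate 4.

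Of the translesion genes, Polk, the polymerase kappa gene, averaged 106 ± 49.5 CPM in cultured and 10.6 ± 3.46 CPM in fresh libraries (3.33 ± 0.62, adjusted p = 0.00555). Rad18, the ligase that calls translesion polymerases to a stalled fork, averaged 105 ± 18.9 CPM in cultured and 23.1 ± 4.80 CPM in fresh libraries (2.01 ± 0.35, adjusted p = 0.00458). Polh, the polymerase eta gene, averaged 35.1 ± 19.8 CPM in cultured and 12.0 ± 4.04 CPM in fresh libraries (1.95 ± 0.62, adjusted p = 0.0456). Cultured and fresh values did not overlap for Polk and Rad18, and 1 cultured library lay inside the fresh range for Polh. Polk and Rad18 kept their call in all 18 alternative settings (Polk 4.13 without fresh replicate 5), and Polh lost it with any fresh library left out (adjusted p 0.0675 to 0.198) or cultured replicate 1 (0.0621) or 3 (0.0538). Rev3l, called lower, had 402.8 and 354 CPM in the fresh libraries of run 2 and 137 to 209 CPM in those of run 1, all above the 63.8 to 85.4 CPM of the cultured libraries.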
